A study of Mus musculus with 4 samples.

Results

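Type I interferon response genes are described here by 9 members, Isg15, Ifit1, Ifit3, Irf7, Irf1, Stat2, Bst2, Oasl2 and Rsad2, out of 21027 genes present in both deposited tables. They are a list of named genes, which was drawn up with earlier results of these data known. The cells were sorted as group 3 innate lymphoid cells (ILC3s) from the small-intestinal lamina propria of mice with floxed Cxxc1 alleles and a cre transgene, 6-8 weeks old, and captured on the BD Rhapsody single-cell system. The labels call the sorted cells Cxxc1-deficient ILC3s and do not say whether T or stromal cells from these mice have lost Cxxc1. Every difference given below is between classes of cells of this 1 genotype, so a difference of ILC3s from another class and the labelled deficiency cannot be told apart, and no mice of another genotype were analysed here. Of the 4 samples, 2 belong to each replicate and differ in the sequencing library only. Since they come as 1 table with 1 sample tag per replicate, n = 2. The labels do not say whether the replicates came from separate or pooled animals. The p-values measure only how far class differences vary between these 2 replicates, judged mainly by spread shared across genes. That variation may be technical.

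Type I interferons bind the receptor made of IFNAR1 and IFNAR2, whose kinases JAK1 and TYK2 activate STAT2. With IRF9, STAT2 is part of the complex ISGF3, which binds interferon-stimulated response elements (ISREs) and switches on antiviral genes. Interferon-γ instead acts through gamma-activated sites (GAS). Irf1 responds to both kinds of interferon, and several members can also be induced by other stimuli. In the gut, a low level of this response in the absence of infection has been linked to the microbiota.

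The sample tags marked 2077 and 4532 cells with 11939862 and 12141164 molecules (unique molecular identifiers, UMIs), in replicates 1 and 2. Quality filters kept 1945 and 4185 of them, whose median depth was 4267 and 2365 UMIs. The 2 captures share 7 cell indexes. Cxxc1, the targeted gene, stood at 92.6 and 72.0 CPM (counts of a gene's UMIs scaled, as is usual, by all UMIs of its class and replicate) in T cells, 61.7 and 64.9 CPM in stromal cells and 49.6 and 47.4 CPM in ILC3s as gated below, but counts of 3' transcript ends do not check a deletion elsewhere in a gene. Classes were gated by a UMI of at least 2 markers of 1 class and fewer than 2 of every other class. ILC3s were gated on 5 markers, among them Il23r, Il22, Il1r1 and Kit, T cells on CD3 and T cell receptor genes, and stromal cells on collagen genes, Dcn, Lum and Pdgfra. This gave 169 and 1692 T cells, 283 and 143 stromal cells, and 247 and 1009 ILC3s. A further 1115 cells (57.3%) and 915 cells (21.9%) met 2 or more gates and were left out of these classes. Of those, 1021 and 571 met the stromal gate. The summed level of the 6 T cell markers was 5196 and 5518 CPM in T cells and 173 and 155 CPM in ILC3s. The 6 stromal markers summed to 60705 and 63247 CPM in stromal cells and to 217 and 138 CPM in ILC3s. Scrublet, a doublet caller, marked 39 cells (2.01%) in replicate 1 and 6 cells (0.143%) in replicate 2, where its calls are too few to rely on. Cells with more than 1 sample tag, 349 and 572 in the whole captures, were not used, but doublets within a tag may remain.

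All 9 members are protein-coding genes with a known place in GRCm38, given here from GENCODE M21. The effectors are Isg15 (chr4:156199424-156200818, minus strand), Ifit1 (chr19:34640871-34650009, plus strand), Ifit3 (chr19:34583531-34588731, plus strand), Oasl2 (chr5:114896936-114912234, plus strand), Rsad2 (chr12:26442746-26456452, minus strand) and Bst2 (chr8:71534255-71537456, minus strand). The regulators are Irf7 (chr7:141262706-141266481, minus strand), Irf1 (chr11:53770014-53778374, plus strand) and Stat2 (chr10:128270559-128292849, plus strand). Promoter windows of 250 bases before to 50 bases after the start site were searched on both strands for the ISRE core GAAANNGAAA and, separately, for the GAS core TTCNNNGAA. An ISRE core was found in 6 of the 9 members' windows, against 1131 of 32851 promoter windows (3.44%). These were the windows of Isg15, Ifit1, Ifit3, Stat2, Bst2 and Rsad2. A GAS core was found in 2 of 9, Irf1 and Bst2, against 2726 of 32851 (8.30%), and the match of Bst2 overlaps its ISRE cores. Irf1 has another window, at chr11:53770223-53770522, which held neither core and is not shown. A member was counted if any of its windows matched, whereas the 32851 are single windows. Neither core lay in the windows of Irf7 and Oasl2, which says only that these letters are not in those windows. Below are the 250 bases before the start site, from RefSeq on GRCm38.p6, written 5′ to 3′ on the gene's strand. Ifit3, Oasl2, Bst2 and Irf1 are shown because each passed a comparison below under every one of 10 other settings, and Ifit1 as the neighbour of Ifit3. Capitals mark ISRE cores on either strand, or the GAS core in Irf1.
Ifit1, chr19:34640639-34640888, plus strand: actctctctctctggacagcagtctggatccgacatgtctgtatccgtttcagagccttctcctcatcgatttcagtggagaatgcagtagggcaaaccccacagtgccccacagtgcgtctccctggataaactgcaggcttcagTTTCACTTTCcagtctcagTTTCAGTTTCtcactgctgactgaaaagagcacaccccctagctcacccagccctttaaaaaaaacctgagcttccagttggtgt
Ifit3, chr19:34583279-34583528, plus strand: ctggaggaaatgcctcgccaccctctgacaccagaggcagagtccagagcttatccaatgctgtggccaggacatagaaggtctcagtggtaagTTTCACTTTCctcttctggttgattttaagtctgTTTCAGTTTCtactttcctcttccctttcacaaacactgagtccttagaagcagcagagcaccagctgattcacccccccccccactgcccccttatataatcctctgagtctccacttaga
Oasl2, chr5:114896684-114896933, plus strand: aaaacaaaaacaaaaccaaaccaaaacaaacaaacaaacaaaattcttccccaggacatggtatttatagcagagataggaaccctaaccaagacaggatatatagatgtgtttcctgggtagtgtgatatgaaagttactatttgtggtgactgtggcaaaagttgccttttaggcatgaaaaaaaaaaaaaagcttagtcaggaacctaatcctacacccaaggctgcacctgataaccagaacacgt
Bst2, chr8:71537473-71537722, minus strand: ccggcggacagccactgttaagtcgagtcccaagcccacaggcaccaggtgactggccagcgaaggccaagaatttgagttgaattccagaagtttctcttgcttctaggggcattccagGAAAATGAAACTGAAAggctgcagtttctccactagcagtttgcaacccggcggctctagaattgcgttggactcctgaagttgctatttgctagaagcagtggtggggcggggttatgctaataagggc
Irf1, chr11:53769764-53770013, plus strand: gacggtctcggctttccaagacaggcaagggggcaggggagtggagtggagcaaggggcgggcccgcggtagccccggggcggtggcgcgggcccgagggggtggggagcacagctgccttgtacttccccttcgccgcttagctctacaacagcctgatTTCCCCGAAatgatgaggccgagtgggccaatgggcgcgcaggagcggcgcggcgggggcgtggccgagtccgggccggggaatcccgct
Ifit1 and Ifit3 lie on the same chromosome and each carry 2 ISRE cores in this window, starting 104 and 85 bases before the start site in Ifit1 and 156 and 122 bases before it in Ifit3. The single GAS core of Irf1 starts 90 bases before its start site. A match describes letters and is no evidence of binding. The table held a promoter for 9 of 9 members.

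The first comparison set T cells, which share the tissue and the sort with ILC3s, against ILC3s. Oasl2, Irf1, Bst2, Ifit1 and Stat2 were lower in T cells and no member was higher. Oasl2 had the largest change of the 5, and Isg15, Irf7, Rsad2 and Ifit3 did not pass. UMIs were summed per replicate and class and tested with edgeR's quasi-likelihood test, replicate being a block, with Benjamini-Hochberg adjustment across the 10108 genes tested. In this comparison 27.6% of all genes were called at an adjusted p under 0.05, with 12.5% higher and 15.1% lower in T cells, beside the 5 of 9 members that were lower. The median log2 fold change of the 9 members was -1.03, and that of all genes 0.01.

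**Figure D1:**
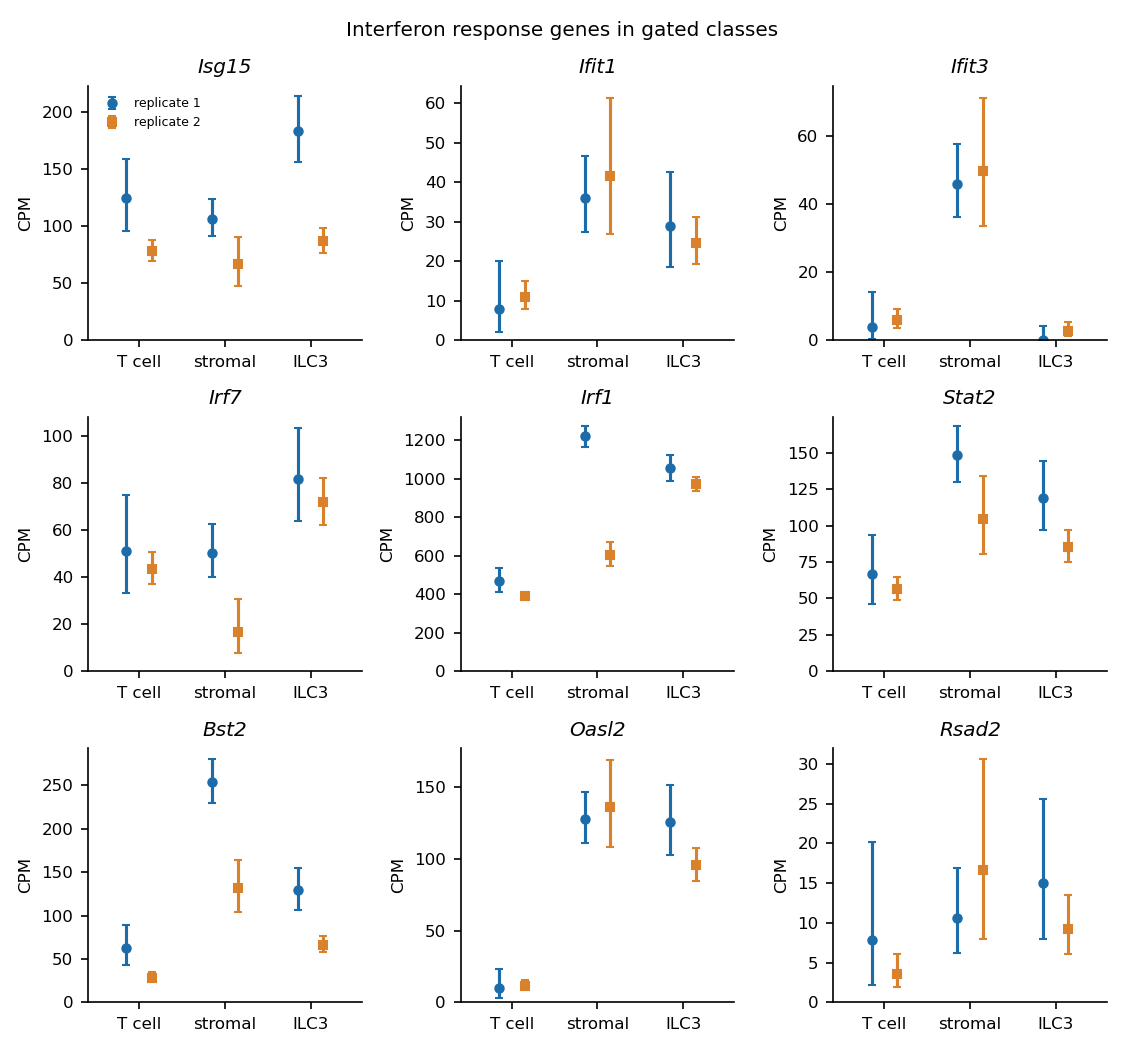
Level of each of the 9 genes (CPM, y axis, from 0) in T cells, stromal cells and ILC3s, by replicate. Points are sums over cells and bars are exact 95% Poisson intervals, which cover counting error only. Oasl2 stands at 9.85 and 11.5 CPM in T cells and at 126 and 95.8 CPM in ILC3s, and Ifit3 is above 46 CPM in stromal cells alone among these classes.

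Oasl2, an oligoadenylate synthetase-like protein of antiviral defence, stood at 9.85 and 11.5 CPM in T cells of replicates 1 and 2, against 126 and 95.8 CPM in ILC3s. Both T cell values lie far below both ILC3 values. The log2 fold change was -3.08 (SE 0.27, adjusted p = 6.9e-12), and it ranged between -3.23 and -2.73 in the 10 other settings, each of which also passed. In ILC3s without any T cell marker UMI the change was -3.00.

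Irf1, a transcription factor of both interferon pathways, stood at 471 and 392 CPM in T cells, against 1052 and 971 CPM in ILC3s. The groups do not overlap, and each replicate gave a similar difference. Its log2 fold change was -1.13 (SE 0.22, adjusted p = 8.4e-05). The 12 immediate early and stress genes, which respond to handling of cells, summed to 9805 and 14899 CPM in T cells and to 16327 and 18717 CPM in ILC3s, and their part in the Irf1 result was not tested.

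Bst2, which encodes tetherin, a membrane protein that holds back budding virus, stood at 63.1 and 28.6 CPM in T cells, against 129 and 66.6 CPM in ILC3s. Within each replicate the T cell value was below the ILC3 value, and both classes were lower in replicate 2. The log2 fold change was -1.03 (SE 0.22, adjusted p = 0.00035). Bst2 passed in 9 of the 10 other settings, and without the replicate block its adjusted p was 0.0858.

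Ifit1, a protein that binds viral RNA lacking host cap methylation, stood at 7.88 and 11.0 CPM in T cells, against 28.8 and 24.7 CPM in ILC3s. The log2 fold change of Ifit1 was -1.20 (SE 0.35, adjusted p = 0.0085), with adjusted p = 0.122 by DESeq2 and 0.104 in thinned cells. Stat2, the subunit of ISGF3 that is particular to type I and type III signalling, stood at 67.0 and 56.4 CPM in T cells, against 119 and 85.5 CPM in ILC3s. Neither gene's groups overlap. The Stat2 change was small (log2 fold change -0.56, SE 0.21, adjusted p = 0.047) and passed in 5 of the 10 other settings.

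Isg15, a ubiquitin-like protein that is attached to other proteins, stood at 124 and 77.8 CPM in T cells, against 183 and 86.5 CPM in ILC3s. The groups overlap, and both classes were higher in replicate 1. Isg15 did not pass (log2 fold change -0.22, SE 0.20, adjusted p = 0.48). Irf7, the factor that amplifies interferon production, stood at 51.2 and 43.4 CPM in T cells, against 81.8 and 71.7 CPM in ILC3s (log2 fold change -0.56, SE 0.25, adjusted p = 0.10), and passed only when libraries were scaled to total UMIs. Rsad2, which encodes viperin, was sparse, with 7.88 and 3.57 CPM in T cells and 14.98 and 9.27 CPM in ILC3s (log2 fold change -1.18, SE 0.57, adjusted p = 0.13).

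Ifit3, a partner of Ifit1 in the same protein family, had few UMIs in both lymphoid classes. It had 3.94 and 6.05 CPM in T cells and 0 and 2.75 CPM in ILC3s. Replicate 1 of ILC3s had 0 UMIs, which allows up to 3.46 CPM when 3 UMIs are taken as the limit, and replicate 2 had 8. This limit is not the exact Poisson interval of the figures. The fitted difference did not pass (log2 fold change 1.54, SE 0.64, adjusted p = 0.070). Ifit3b, a near-identical neighbour that could take some of its reads, had 0 UMIs in T cells and ILC3s, and 10 and 1 UMIs in stromal cells.

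The second comparison set stromal cells, which are non-haematopoietic cells of the lamina propria, against ILC3s. Ifit3 was the member that differed most, and Bst2 was also higher in stromal cells under all 10 other settings. Ifit1, Oasl2 and Stat2 were higher too, by smaller amounts, and Irf7 was lower, of which Ifit1 passed in 4, Oasl2 in 6, Stat2 in 9 and Irf7 in 5 of those settings. The 5 higher and 1 lower members stand beside 27% and 23.5% of all 10108 genes, and 50.5% of all genes were called in this comparison. The median log2 fold change was 0.62 over the members and -0.01 over all genes.

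Ifit3 stood at 46.1 and 49.9 CPM in stromal cells, against 0 and 2.75 CPM in ILC3s. Both stromal values are far above both ILC3 values. The log2 fold change was 4.95 (SE 0.50, adjusted p = 7.5e-11) and lay between 4.49 and 5.36 in the 10 other settings. Because replicate 1 of ILC3s held no Ifit3 UMI, this fitted value depends on the prior count used in the fit. Replicate 2 alone gave 3.96, but as a difference of log2 CPM with another prior count, so the 2 values are unlike measures.

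Bst2 stood at 254 and 131 CPM in stromal cells, against 129 and 66.6 CPM in ILC3s, and both classes were higher in replicate 1. The log2 fold change was 1.33 (SE 0.20, adjusted p = 5.8e-07), and Bst2 passed in all 10 other settings. Ifit1 stood at 36.1 and 41.6 CPM in stromal cells, against 28.8 and 24.7 CPM in ILC3s (log2 fold change 0.91, SE 0.32, adjusted p = 0.016).

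Oasl2, low in T cells, stood at 128 and 136 CPM in stromal cells, against 126 and 95.8 CPM in ILC3s (log2 fold change 0.62, SE 0.21, adjusted p = 0.012). The 2 classes are close in replicate 1. Stat2 stood at 148 and 105 CPM in stromal cells, against 119 and 85.5 CPM in ILC3s (log2 fold change 0.68, SE 0.21, adjusted p = 0.0063). Irf7 went the other way, at 50.5 and 16.6 CPM in stromal cells, against 81.8 and 71.7 CPM in ILC3s (log2 fold change -0.76, SE 0.28, adjusted p = 0.024). The Irf7 difference was mostly in replicate 2, with log2 values of -0.30 in replicate 1 alone and -1.74 in replicate 2 alone.

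Irf1 gave opposite directions in the 2 replicates. It stood at 1219 and 605 CPM in stromal cells, against 1052 and 971 CPM in ILC3s, and did not pass (log2 fold change 0.15, SE 0.22, adjusted p = 0.59). Immediate early and stress genes summed to 24113 and 26606 CPM in stromal cells and to 16327 and 18717 CPM in ILC3s, and their part in the Irf1 values was not tested. Isg15 stood at 107 and 66.5 CPM in stromal cells, against 183 and 86.5 CPM in ILC3s (log2 fold change -0.24, SE 0.22, adjusted p = 0.38). Rsad2 had 10.6 and 16.6 CPM in stromal cells and 14.98 and 9.27 CPM in ILC3s, with overlapping groups (adjusted p = 0.50).

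The scaling of the libraries matters for stromal cells. With totals in place of TMM factors the median of all genes moved to -0.36, and 2 members were higher (Ifit3 and Bst2) and 2 lower (Irf7, and Isg15 at a log2 fold change of -0.59, adjusted p = 0.024). These 4 of 9 members stand beside 57.2% of all 10108 genes, of which 2223 were higher and 3555 lower. Ifit1, Oasl2 and Stat2 then kept a positive sign but did not pass, with adjusted p between 0.136 and 0.300.

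**Figure D2:**
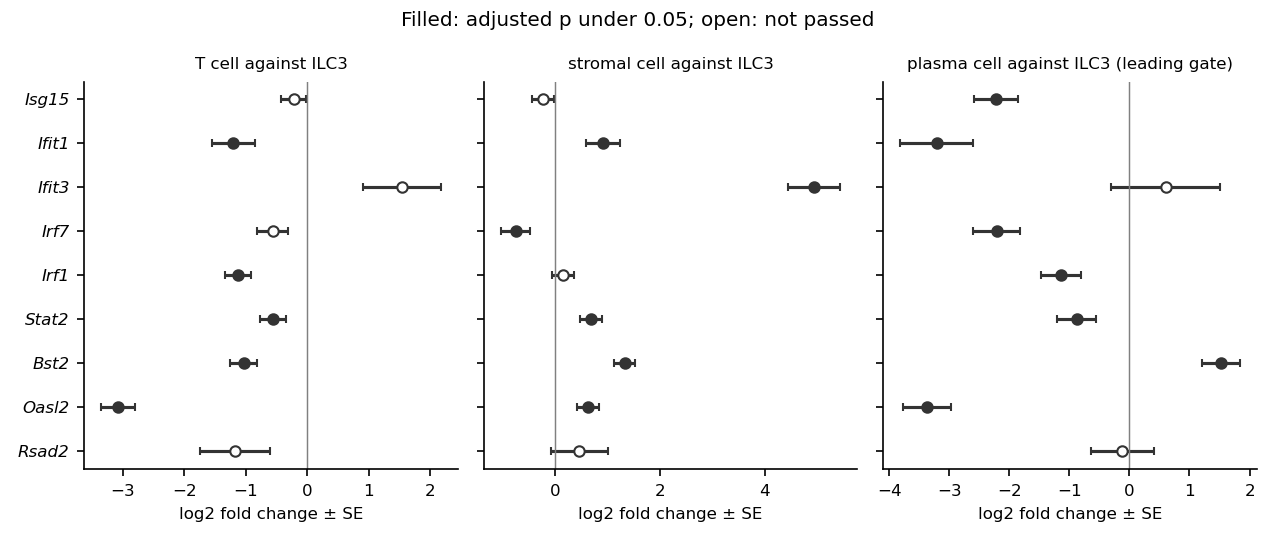
Log2 fold change with its SE (x axis) of each gene in T cells, stromal cells and plasma cells, each over ILC3s. Filled points had an adjusted p under 0.05. Oasl2 lies at -3.08 in T cells and at 0.62 in stromal cells, and Ifit3 at 4.95 in stromal cells.

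Plasma cells and macrophages or monocytes could be followed only with a second gate, chosen after seeing the data, in which a cell had at least 2 markers of a class and at least 3 times the marker UMIs of every other class. This leading gate gave 340 and 22 plasma cells and 11 and 33 macrophages or monocytes, and also 222 and 1642 T cells, 414 and 279 stromal cells, and 355 and 1097 ILC3s. Plasma cells had the lowest mean level of 7 of the 9 members among the 5 classes, the exceptions being Irf1 and Bst2. Macrophages or monocytes had the highest mean level of Isg15 and Rsad2. The 2 replicates of neighbouring classes overlapped in 16 of 36 such pairs, so the order is uncertain for many members, at its ends as well. At the low end plasma cells overlapped with ILC3s for Ifit3 and with T cells for Rsad2. In replicate 2, Ifit1 and Oasl2 had 0 UMIs in plasma cells, among 189717 UMIs. A limit of 3 UMIs there lies above the T cell values of that replicate, 10.6 CPM of Ifit1 and 11.5 CPM of Oasl2. Their order there is therefore uncertain too. The highest classes overlapped for Bst2, Ifit1, Irf1 and Oasl2.

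In plasma cells against ILC3s, 6 members were lower and 1 was higher, beside 19.6% and 16.4% of 11827 genes, with 36% called in either direction. The 22 plasma cells of replicate 2 limit this comparison. Isg15 stood at 18.9 and 10.5 CPM in plasma cells, against 168 and 90.2 CPM in ILC3s (log2 fold change -2.22, SE 0.36, adjusted p = 3.9e-08). Oasl2 stood at 7.39 and 0 CPM in plasma cells, against 131 and 93.2 CPM in ILC3s (log2 fold change -3.36, SE 0.40, adjusted p = 1.6e-13). For neither gene do the groups overlap. Ifit1, Irf7, Irf1 and Stat2 were lower with log2 fold changes of -3.21, -2.21, -1.14 and -0.88. Ifit1 rested on 6 UMIs in plasma cells, at 1.77 CPM in replicate 1 and 0 CPM in replicate 2. The replicates differed in size for Irf7, at -2.19 in replicate 1 alone and -0.85 in replicate 2 alone. In the same order Irf1 was at -0.69 and -1.79, and Stat2 at -0.65 and -2.24. Irf1 and Stat2 did not pass without the replicate block.

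Bst2 was the member higher in plasma cells, at 231 and 89.6 CPM, against 129 and 68.5 CPM in ILC3s (log2 fold change 1.52, SE 0.32, adjusted p = 2.0e-05). The groups overlap across replicates, and within each replicate the plasma cell value was above the ILC3 value. Plasma cells spend much of their RNA on immunoglobulin, and Igha alone stood at 132658 and 175398 CPM there. With libraries scaled to total UMIs the median of all genes moved to -0.88, and the Bst2 change was 0.67 (adjusted p = 0.047). With that scaling 6 members were lower and 1 higher, beside 52% of 11827 genes called, 5288 lower and 860 higher. Ifit3 and Rsad2 did not pass in plasma cells, with log2 fold changes of 0.61 (SE 0.91) and -0.12 (SE 0.53).

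Macrophages or monocytes were too few for the test, which needed 20 cells in each replicate. Isg15 stood at 382 and 261 CPM in them, against 168 and 90.2 CPM in ILC3s, so both macrophage values lie above both ILC3 values. Rsad2 stood at 105 and 302 CPM in them, on 8 and 52 UMIs, against 12.7 and 12.2 CPM in ILC3s. Irf1, in contrast, stood at 79.0 and 226 CPM in macrophages or monocytes, against 1092 and 968 CPM in ILC3s. Summed over the cells of this class, the Isg15 and Rsad2 values are therefore high and the Irf1 values low. Whether this holds within single cells was not tested.

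**Figure D3:**
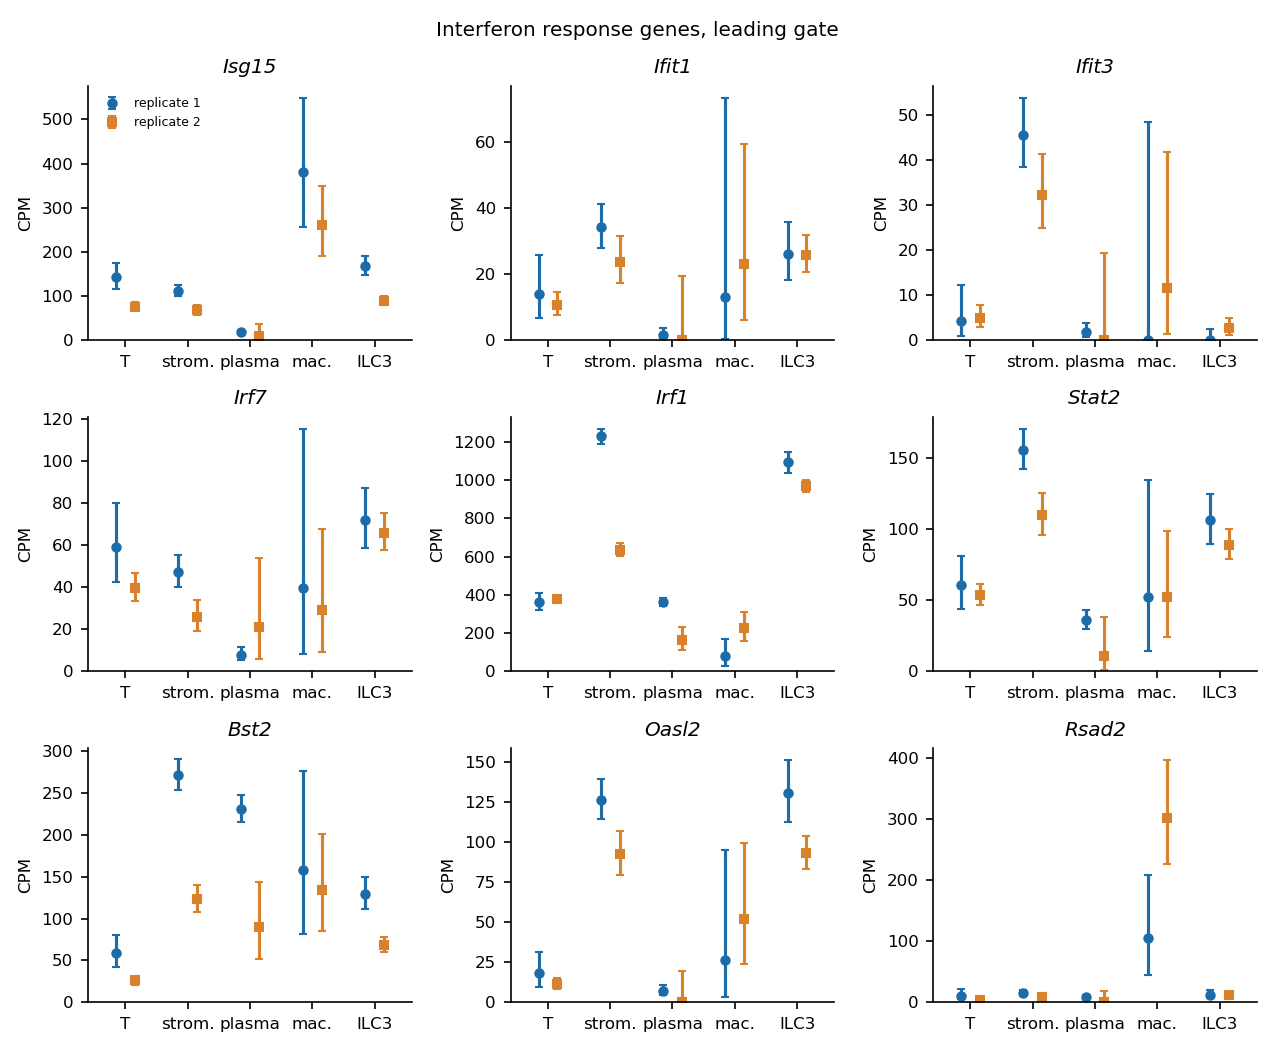
Level of each gene (CPM, y axis, from 0) in T cells, stromal cells, plasma cells, macrophages or monocytes, and ILC3s under the leading gate, by replicate, with exact 95% Poisson intervals. Macrophages or monocytes stand at 105 and 302 CPM of Rsad2, and ILC3s at 12.7 and 12.2 CPM.

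Joint detection asked in how many cells 3 or more of the 9 members had a UMI, after thinning each cell to 1500 UMIs and leaving out shallower cells. This was so in 7 of 165 T cells (4.24%, exact 95% interval 1.72 to 8.55) and 22 of 1390 T cells (1.58%, 0.994 to 2.39). Among stromal cells it was so in 47 of 277 (17.0%, 12.7 to 21.9) and 9 of 111 (8.11%, 3.77 to 14.8). Among ILC3s it was so in 35 of 242 (14.5%, 10.3 to 19.5) and 68 of 935 (7.27%, 5.69 to 9.13). Within each replicate, the T cell interval lay below that of ILC3s, while those of stromal cells and ILC3s overlapped. Other settings changed this. At 1000 UMIs the intervals of T cells (0.368 to 5.10) and ILC3s (4.38 to 11.3) overlapped in replicate 1, and with 4 or more members they overlapped in both replicates. Under the leading gate described above, stromal cells (17.9 to 26.2) lay above ILC3s (9.01 to 16.1) in replicate 1. Each class had a higher share in replicate 1 than in replicate 2, at the same depth per cell. The thinning left out 4 and 302 T cells, 6 and 32 stromal cells, and 5 and 74 ILC3s. The intervals cover counting error only.

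Most cells had few members. In ILC3s, 17.4% and 19.6% of cells had 0 members, and no ILC3 had more than 6 members in replicate 1 or 7 in replicate 2. Of T cells, 39.4% and 44.2% had 0 members, and of stromal cells 15.9% and 24.3%. Irf1 was in 34 of the 35 ILC3s with 3 or more members in replicate 1 and in 60 of 68 in replicate 2. Without Irf1 and Bst2, the share fell to 1.21% and 0.576% in T cells, 3.61% and 2.70% in stromal cells, and 2.48% and 1.07% in ILC3s, and the intervals of T cells and ILC3s then overlapped in both replicates. Isg15 was detected at this depth in 13.9% and 10.1% of T cells, 14.4% and 10.8% of stromal cells, and 21.5% and 10.9% of ILC3s. For Oasl2 the shares were 0.606% and 1.29% of T cells, 14.1% and 11.7% of stromal cells, and 14.9% and 13.5% of ILC3s.

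Detection of 2 members in the same cell was compared with their detection apart for all 36 pairs, of which 28 gave values in both replicates of ILC3s. A member was seen more often beside its partner than without it, in both replicates, for 11 of 36 pairs in T cells, 16 of 36 in stromal cells and 10 of 28 in ILC3s. It was seen less often in both replicates for 4, 4 and 3 pairs, and the other pairs differed between replicates or were equal. No such count was made for pairs of other genes. These counts therefore cannot show that members occur together more than other genes do. The examples that follow were chosen after their values were seen. Of T cells with an Isg15 UMI, 8.70% and 3.55% had an Ifit1 UMI, against 0.704% and 1.20% of T cells without. In stromal cells the shares with Ifit1 were 12.5% and 25% beside Isg15, against 1.69% and 2.02% without it, on 5 and 3 cells with both. Of ILC3s with an Oasl2 UMI, 27.8% in replicate 1 and 11.1% in replicate 2 also had an Irf7 UMI, against 10.7% and 10.01% of ILC3s without Oasl2. Of ILC3s with an Isg15 UMI, 9.62% and 13.7% had an Oasl2 UMI, against 16.3% and 13.4% of those without. These shares rest on few cells and no test was made.

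Without thinning, the shares with 3 or more members were 12.4% and 4.02% in T cells, 54.4% and 34.3% in stromal cells, and 42.9% and 24.1% in ILC3s, at median depths of 2622 and 2034, 4474 and 3344, and 3359 and 2808 UMIs. No class here is known to lack all 9 genes, so no background share could be set. Under the leading gate and thinned, 6 of 340 plasma cells (1.76%, 0.650 to 3.80) and 0 of 21 (up to 16.1%) had 3 or more members, with 34.1% and 13.6% before thinning at median depths of 9495 and 8693 UMIs. RNA free in the suspension can give single UMIs, and Igha stood at 1521 and 141 CPM in ILC3s, so it differed between the replicates. Its part in the shares was not tested. The summed level of the 9 members gave the same order for T cells, at 806 and 631 CPM, against 1735 and 1414 CPM in ILC3s, with stromal cells at 1999 and 1169 CPM. Irf1 made up most of each sum, with 471 and 392 CPM in T cells and 1052 and 971 CPM in ILC3s. Without Irf1 and Bst2 the sums were 272 and 210 CPM in T cells, 526 and 432 CPM in stromal cells, and 553 and 376 CPM in ILC3s.

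**Figure D4:**
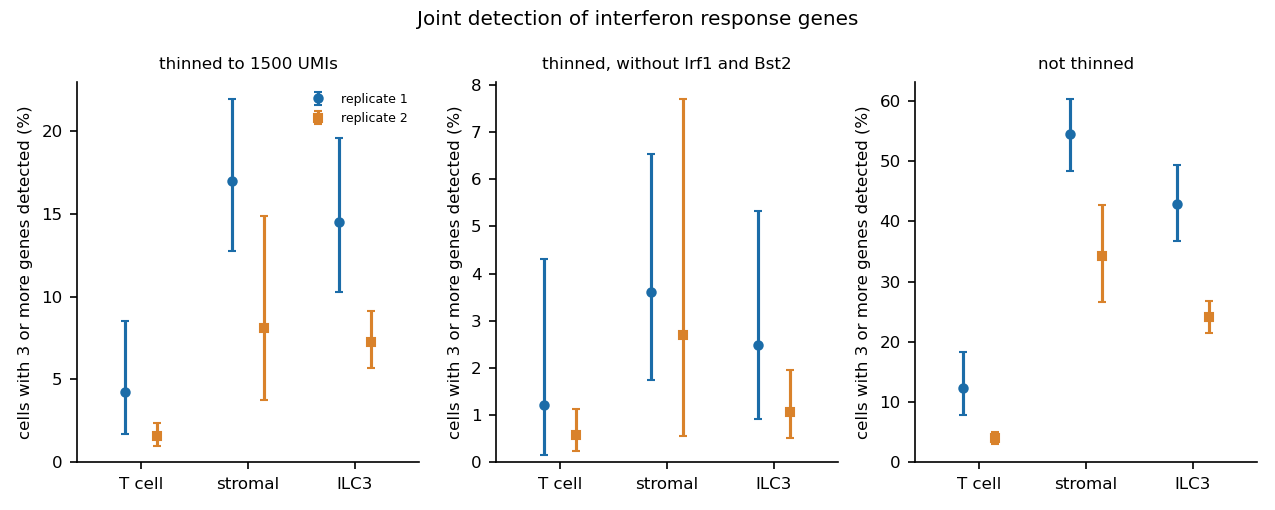
Share of cells with 3 or more of the 9 genes detected (percent, y axis, from 0; the y scales differ) in T cells, stromal cells and ILC3s, thinned to 1500 UMIs, thinned without Irf1 and Bst2, and not thinned. Bars are exact 95% binomial intervals. Thinned T cells stand at 4.24% and 1.58%, and ILC3s at 14.5% and 7.27%.

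Within ILC3s, cells with an Ncr1 UMI and no Ccr6 UMI were set against cells with the opposite, since Ncr1 marks the NCR+ subset and Ccr6 the subset that includes lymphoid tissue inducer-like cells. The subsets were small, with 35 and 104 Ncr1-gated and 23 and 116 Ccr6-gated cells. Of the 6 members with enough counts to be tested, 0 passed, beside 4.67% of 5670 genes, 1.94% higher and 2.73% lower in Ncr1-gated cells. By the edgeR test 3 of the 6 had an unadjusted p under 0.05 (Irf1, Irf7 and Bst2), and DESeq2 also called 0 of 6. Ifit1, Ifit3 and Rsad2 were too low to be tested.

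Irf1 stood at 855 and 838 CPM in Ncr1-gated cells, against 1427 and 970 CPM in Ccr6-gated cells. Irf1 did not pass (log2 fold change -0.45, SE 0.15, adjusted p = 0.055), and immediate early and stress genes summed to 14074 and 18336 CPM in Ncr1-gated cells and to 16218 and 19935 CPM in Ccr6-gated cells. Both Ncr1-gated values lie below both Ccr6-gated values. Irf7 stood at 159 and 100.3 CPM in Ncr1-gated cells, against 63.9 and 52.6 CPM in Ccr6-gated cells. These groups do not overlap either, on 21 and 31 UMIs against 6 and 21, and they differ by 1.08 on the log2 scale (SE 0.40, adjusted p = 0.12).

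Bst2 stood at 83.2 and 64.7 CPM in Ncr1-gated cells, against 181 and 90.2 CPM in Ccr6-gated cells. Its log2 fold change was -0.76 (SE 0.37, adjusted p = 0.34). It passed under 2 other gates, at -1.32 (adjusted p = 0.019) with at least 3 markers and at -1.17 (adjusted p = 0.049) with the leading gate. Oasl2 stood at 136 and 113 CPM in Ncr1-gated cells, against 85.2 and 75.2 CPM in Ccr6-gated cells, which differ by 0.59 on the log2 scale (SE 0.35, adjusted p = 0.51). Isg15 stood at 182 and 97.0 CPM in Ncr1-gated cells, against 192 and 77.7 CPM in Ccr6-gated cells, with a log2 fold change of 0.13 (SE 0.33). Stat2 stood at 121 and 84.1 CPM in Ncr1-gated cells, against 149 and 92.7 CPM in Ccr6-gated cells, where the log2 fold change was -0.21 (SE 0.35), and the groups of both genes overlap. The share of cells with 3 or more members was 25.7% (12.5 to 43.3) and 6.06% (2.26 to 12.7) in Ncr1-gated cells, against 4.35% (0.110 to 21.9) and 5.26% (1.96 to 11.1) in Ccr6-gated cells, with overlapping intervals in both replicates. Before thinning it was 54.3% and 30.8% in Ncr1-gated cells, against 60.9% and 26.7% in Ccr6-gated cells.

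**Figure D5:**
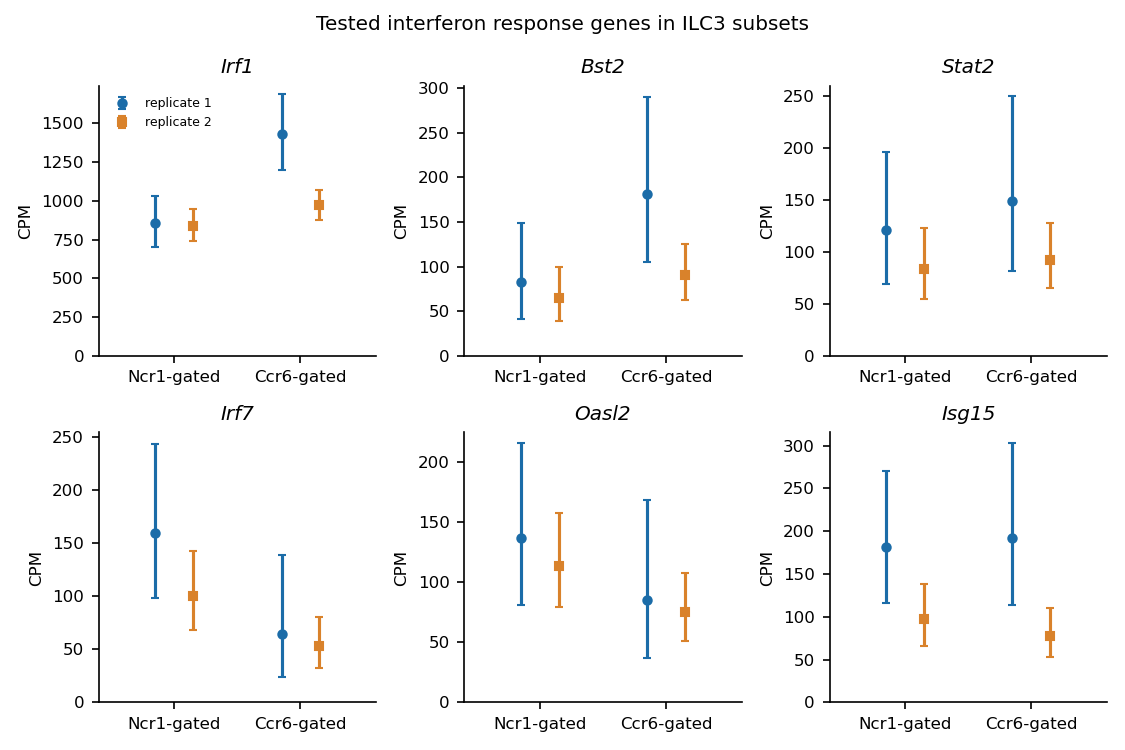
Level of the 6 tested genes (CPM, y axis, from 0) in Ncr1-gated and Ccr6-gated ILC3s, by replicate, with exact 95% Poisson intervals. Irf7 stands at 159 and 100.3 CPM in Ncr1-gated cells and at 63.9 and 52.6 CPM in Ccr6-gated cells, and none of the 6 passed.

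The rest of the pathway was followed in gene lists. Upstream, only 3 of 20 interferon genes were columns of both tables, and of these Ifna16 and Ifnl2 had 0 UMIs in T cells, stromal cells and ILC3s under the 2-marker gate. Ifng, which encodes interferon-γ, was higher in T cells, at 1456 and 501 CPM, against 100.3 and 37.4 CPM in ILC3s (log2 fold change 3.91, SE 0.25), and also in Ncr1-gated cells, at 98.4 and 71.2 CPM, against 0 and 10.02 CPM in Ccr6-gated cells (adjusted p = 6.0e-04, and 0.0774 by DESeq2). Of 10 tested receptor and signalling genes, 3 were higher and 1 lower in T cells, beside 12.5% and 15.1% of all genes. Ifnar1, a chain of the type I receptor, was among the 3 (log2 fold change 0.62, SE 0.23, adjusted p = 0.035). Ifngr1 (1.22) and Jak2 (1.22) were the others, and Ifngr2, a chain of the interferon-γ receptor, was the lower one (-2.06). Ifnar1 did not pass with DESeq2 or with total-UMI scaling, whereas Ifngr1 and Jak2 did. In stromal cells 4 were higher and 4 lower, beside 27% and 23.5% of all genes. Among them, Ifnar2 (1.71) and Irf9 (1.17) were higher and Tyk2 (-1.64) and Jak1 (-0.90) lower. By DESeq2 the adjusted p of Tyk2 was 0.0677.

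Among 39 tested other interferon-stimulated genes, T cells had 15 higher and 4 lower than ILC3s, beside 12.5% and 15.1% of all genes. A further 20 did not pass, and the median log2 fold change of the 39 was 0.59. The median of the 9 members was -1.03 and that of all genes 0.01. Ifi27l2a stood at 177 and 92.9 CPM in T cells, against 19.6 and 5.49 CPM in ILC3s (log2 fold change 3.75, SE 0.30). Ifitm2, of a family that blocks viral entry, stood at 205 and 146 CPM in T cells, against 17.3 and 17.8 CPM in ILC3s (log2 fold change 3.34, SE 0.25). Lgals3bp, a secreted glycoprotein, was lower in T cells (log2 fold change -1.51) and so was Ifi204, a DNA-binding protein (-2.44, on 7 UMIs against 36, adjusted p = 0.0629 by DESeq2). Ly6e, the gene of the list with the highest CPM, did not pass (-0.12). Scaled to total UMIs, 13 were higher and 6 lower, beside 27.6% of all genes called in either direction. DESeq2 called 9 higher and 1 lower, beside 12.3%.

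Stromal cells had 21 of these 39 genes higher than ILC3s and 4 lower, beside 27% and 23.5% of all genes, with a median of 0.90. Phf11d stood at 62.9 and 56.5 CPM in stromal cells and at 0 UMIs in ILC3s, at least 77.1-fold higher, taking 3 UMIs over both replicates as the floor. Ifi27l2a was higher (log2 fold change 6.97, SE 0.30) and so was Ly6a, at 2851 and 2874 CPM, against 355 and 460 CPM in ILC3s. Epsti1 was lower in stromal cells (log2 fold change -2.74, SE 0.29), and Ifi213 had 1 UMI in stromal cells against 49 in ILC3s, a ratio of 0.0350 (counting interval 8.7e-04 to 0.204). Scaled to total UMIs, 19 were higher and 7 lower, beside 57.2% of all genes called in either direction. Between the ILC3 subsets, 0 of 22 were higher in Ncr1-gated cells and 4 lower, beside 1.94% and 2.73% of all genes. Among the 4 was Ly6a, at 129 and 197 CPM in Ncr1-gated cells, against 841 and 960 CPM in Ccr6-gated cells. The change of Ly6a was -2.43 on the log2 scale (SE 0.21, adjusted p = 9.9e-16). DESeq2 called 1 of the 22, beside 1.13% of all genes.

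Of 9 tested genes more tied to interferon-γ, 0 were higher and 5 lower in Ncr1-gated cells, beside 1.94% and 2.73% of all genes. Cxcl10, a chemokine for CXCR3-bearing cells, stood at 590 and 414 CPM in Ncr1-gated cells, against 2918 and 1601 CPM in Ccr6-gated cells, with a log2 fold change of -2.15 (SE 0.15). In T cells 1 of 10 was higher and 5 were lower, beside 12.5% and 15.1% of all genes. Cxcl9 stood at 11.8 and 9.07 CPM in T cells, against 678 and 383 CPM in ILC3s (log2 fold change -5.33, SE 0.27). Stromal cells went the other way, with 5 of 10 higher than in ILC3s and 0 lower, beside 27% and 23.5% of all genes. Iigp1 had the largest change there (log2 fold change 3.71, SE 0.23). Scaled to total UMIs, 5 were higher and 2 lower in stromal cells, beside 57.2% of all genes called in either direction. Usp18, which dampens type I signalling at its receptor, was lower in T cells (log2 fold change -2.66, SE 0.65, on 7 UMIs against 45) and higher in stromal cells (1.44, SE 0.49), with adjusted p of 0.0544 and 0.107 by DESeq2. Among other regulatory factors, Irf8 was lower in T cells (-1.68) and higher in stromal cells (0.92), and Irf4, a factor of activated lymphocytes, was higher in T cells (3.27).

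The genes whose levels ran most like the mean of the 9 members over the 6 sums of class and replicate were Bnip2 (Pearson r = 0.997), Paics (0.994), Ptms (0.993), Gng12 (0.993) and Cebpb (0.993). For single members the nearest were Phf1 and Rab21 for Isg15, Ftl1-ps1 and Abi3bp for Ifit1, Akap12 and Ext1 for Ifit3, Ppp6r3 and Golga4 for Irf7, and Gbp6 and Stt3b for Irf1. They were Plod2 and Arhgap5 for Stat2, Rbpms and Nrp1 for Bst2, Bnip2 and Xbp1 for Oasl2, and Ahcyl1 and Por for Rsad2. These 6 sums come from only 3 classes and share their libraries, and 81 of the 3471 genes compared (2.33%) had an r of at least 0.95 with the mean, so the order among them carries little.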

How the data were processed

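The deposited tables hold raw UMI counts for each cell. They came, per the file headers, from the BD WTA Multiplex Rhapsody Analysis Pipeline 1.8 with GRCm38 and GENCODE M19, and the submitters' processing notes name HISAT2 2.0.5 and Bowtie2, with no role given. The sample tag calls are names in a deposited file of another kind. Cells of the tag used, with at least 300 genes and at most 25% mitochondrial UMIs, were gated, and their counts were summed per replicate and class where each replicate had 20 cells. These were modelled in edgeR 4.0.16 (R 4.3.3; TMM, filterByExpr, replicate as block, since the classes of a replicate share a capture), with DESeq2 1.42.0 as an alternative. Tests were two-sided, with 0.05 as the threshold, and the fit was tested on simulated data. The SE is the absolute log2 fold change over the square root of F. The fit of T cells, stromal cells and ILC3s leaves 2 residual degrees of freedom, so p-values rest mainly on spread shared across genes. Thinning to 1500 UMIs was seeded. Scrublet ran in scanpy 1.11.5, and 6 other sample tags were not used. Likeness used log2(CPM + 10), centred within replicate, over genes of at least 50 CPM. From each list the text names up to 2 called genes with the largest change in each direction and the gene with the highest mean CPM, and a few others such as Ifnar1, Irf9 and Jak1 were chosen after their values were seen. The members and lists were chosen with earlier results of these data known. A gate marker, details of the genotype and results that need them are not reported here.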

Additional observations from a re-analysis of the deposited data

How the results depend on the processing

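Oasl2 and Irf1 in T cells, and Ifit3 and Bst2 in stromal cells, kept their direction and passed in the 10 other settings run for them. In T cells 3 of 9 members were called with DESeq2, beside 1246 of 10108 genes (12.3%), 3 of 9 with no replicate block, beside 2020 (20%), 3 of 8 in cells thinned to 1500 UMIs, beside 2010 of 6526 (30.8%), and 6 of 9 with total-UMI scaling, beside 27.6%. In stromal cells it was 3 of 9 with DESeq2, beside 3403 of 10108 genes (33.7%), 3 of 9 with the leading gate, beside 5893 of 11827 (49.8%), and 3 of 8 in thinned cells, beside 2532 of 6526 (38.8%). Between the ILC3 subsets it was 1 of 8 with at least 3 markers and 1 of 8 with the leading gate, beside 4.28% and 4.32% of genes. The subsets gave 64 calls over all genes with DESeq2, 87 with no replicate block and 107 with thinned cells. Signs that turned were Isg15 in stromal cells, 0.18 with thinned cells; Irf1 in stromal cells, -0.21 with total-UMI scaling; Ifit3 in plasma cells, -0.24 with that scaling; Rsad2 in plasma cells, 0.16 with no replicate block; and Stat2 between the subsets, 0.33 with thinned cells and 0.054 with the leading gate, where neither sign passed the test. DESeq2 and the scaling also moved the gene lists, as given beside some of them. Of the 10 receptor and signalling genes, 2 were higher and 1 lower in T cells with either. All genes called there were 12.3% with DESeq2 and 27.6% with the scaling. In stromal cells DESeq2 called 3 of these 10 higher and 3 lower, beside 33.7% of all genes. It called 19 of the 39 other interferon-stimulated genes higher there and 2 lower. The mean share of cells with 3 or more members was 5.42% of ILC3s at 1000 UMIs, and at 2500 UMIs it was 6.46% of T cells, 31.8% of stromal cells and 26.8% of ILC3s. Unthinned it was 8.22%, 44.3% and 33.5% in the same order. With 2 or more members it was 14.6%, 39.0% and 41.3%, and with 4 or more 3.79% of stromal cells and 2.65% of ILC3s. Without Irf1 and Bst2 it was 0.894%, 3.16% and 1.77%, and the summed level was 241, 479 and 465 CPM. The causes were not tested. ILC3s without T cell UMIs were too few to split into subsets, so that setting was not run there. The leading gate, total-UMI scaling and the unthinned shares were chosen after seeing the data. With 2 replicates, leaving out either leaves no residual degrees of freedom, so only its log2 fold changes were computed. All values given for 1 replicate alone are differences of log2 CPM with a prior count and not fitted values.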

Other observations

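Under the leading gate, 3 further classes reached 10 cells in replicate 1 only, so they have no replicate. Among 12 endothelial cells, 7 (58.3%, exact 95% interval 27.7 to 84.8) had 3 or more members after thinning, with Ifit3 at 297 CPM (181 to 458, 20 UMIs), Isg15 at 267 CPM, Oasl2 at 237 CPM and Irf1 at 1617 CPM. Among 16 plasmacytoid dendritic cells, named by their gate markers only, Bst2 stood at 1482 CPM (exact interval 1196 to 1815). Ifit1, Ifit3, Irf7, Oasl2 and Rsad2 had 0 UMIs there, each of which allows up to 47.8 CPM when 3 UMIs are taken as the limit. Of these 16 cells, 3 (18.75%, 4.05 to 45.6) had 3 or more members after thinning. Among 45 dendritic cells, Bst2 stood at 163 CPM, Irf1 at 486 CPM and Oasl2 at 15.4 CPM, on 8 UMIs, and 4 cells (8.89%) had 3 or more members.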
